A study of Mus musculus with 12 samples.

Results

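Cells that carried the leukaemia fusion NUP98-NSD1 and a first short hairpin RNA against Nizp1 (shNizp1#1) were compared with cells that carried the same fusion and a control hairpin. The comparison was defined by the sample labels and took 6 of the 12 libraries of the series, 3 in each group, with the replicate number as a block. All groups came from mouse bone marrow sorted as c-Kit+/Sca-1+/Lin- cells and were grown in RPMI with 20 ng/ml IL-3, 20 ng/ml IL-6 and 100 ng/ml SCF. Both groups compared had received NUP98-NSD1 from an MSCV retrovirus, had been selected with geneticin and had then received a constitutive pLKO.1-puro hairpin, either the control or shNizp1#1. The remaining 6 libraries were an empty MSCV vector with the control hairpin (3) and NUP98-NSD1 with a second hairpin, shNizp1#2 (3). The series describes 3 independent experiments, and libraries with the same number are called an experiment here. The labels name no animals, clones or ages, so the p-values reflect the variation among these libraries only. In bulk libraries fewer cells of a type and less RNA per cell cannot be told apart.

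Nizp1, listed by its gene symbol Zkscan17, is a zinc finger protein with a SCAN domain that binds the histone methyltransferase NSD1 and can repress transcription. NSD1 places methyl groups on lysine 36 of histone H3. The NUP98-NSD1 fusion joins it to a nucleoporin, occurs in acute myeloid leukaemia, and is known for maintaining HoxA gene expression in myeloid progenitors.

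Library totals of the series ran from 3586538 to 6842589 counts, and 11994 genes passed the filter on low counts. Levels are CPM (read counts scaled to library size), which are not corrected for gene length. Progenitor and mast cell markers were present in every library: Kit had 2497, 2532 and 1930.4 CPM with the control shRNA and 2699, 3105 and 2222 CPM with shNizp1#1, and the mast cell carboxypeptidase Cpa3 had 29991, 24079 and 21773 CPM with the control shRNA and 25557, 20681 and 20071 CPM with shNizp1#1. The B cell markers Cd79a and Pax5, the T cell markers Cd3e, Cd3d and Cd4, the red cell markers Hbb-bs and Alas2 and the stromal markers Col1a1, Col1a2 and Cdh5 had between 0 and 9 counts each over the 6 libraries. Values of a gene are given for experiments 1, 2 and 3 in that order, and the control libraries come before those with shNizp1#1.

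Zkscan17 (chromosome 11, 59485520 to 59506644, minus strand) fell to about the same extent in each experiment. It stood at 62.6, 49.4 and 61.8 CPM with the control shRNA and 35, 26.2 and 30.4 CPM with shNizp1#1. Every library with shNizp1#1 was below every control library (log2 fold change -0.93, SE 0.12, adjusted p = 0.00198, edgeR with the replicate block), and the group means were 57.9 ± 7.42 and 30.5 ± 4.37 CPM (SD, n = 3). With all of experiment 3 left out the change was -0.88 with an adjusted p of 0.0986. Of the 20 tested genes within 500000 bases of Zkscan17, edgeR and DESeq2 each called 0, 2 had an unadjusted p under 0.05, and 10 lay below 0. Another gene of the table, 4933439C10Rik, overlaps Zkscan17, so that some reads could belong to either.

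The genes of the fusion partners were not called. Nsd1 stood at 788, 699 and 745 CPM with the control shRNA and 807, 966 and 907 CPM with shNizp1#1 (log2 fold change 0.26, SE 0.16, adjusted p = 0.587), and Nup98 at 286, 319 and 241 CPM with the control shRNA and 361, 408 and 288 CPM with shNizp1#1 (log2 fold change 0.32, SE 0.11, adjusted p = 0.233). Reads of the fusion construct can count towards both, so neither value is that of the endogenous gene alone. Of the 18 tested genes in the list of Nizp1 and H3K36 methylation enzymes and readers, 12 lay above 0 and Zkscan17 alone was called, with a list median of 0.06. The 10 tested HoxA, HoxB, Meis and Pbx genes divided into 5 above and 5 below 0 with 0 calls, and Hoxa9, a homeobox factor of progenitor self-renewal, stood at 18.8, 11 and 62.8 against 14.5, 4.19 and 56 CPM (log2 fold change -0.47, SE 0.26, adjusted p = 0.525).

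Over all tested genes, shNizp1#1 gave 61 genes higher (0.509% of the genes tested) and 134 lower (1.12%), at an adjusted p under 0.05, 195 in all (1.63%), and 1479 genes had an unadjusted p under 0.05. A change of at least 2-fold was found for 15 of the higher genes (0.125%) and 23 of the lower (0.192%). Without the replicate block edgeR called 0 genes in either direction, and 480 had an unadjusted p under 0.05. The median change over all tested genes was -0.00, and the called genes were moderate in size: the medians were 0.68 for the higher and -0.64 for the lower genes. All 61 higher genes and 128 of the 134 lower genes moved in one direction in the 3 experiments, and the CPM of the groups did not overlap for 37 and 95 of them. The calls came from the same libraries in a fit blocked by experiment, so the selection itself favoured these shares. Groups did not overlap for 1005 of all tested genes (8.38%). Most calls were of well expressed genes, with 33 of the higher and 80 of the lower in the top tertile of expression.

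**Figure D1:**
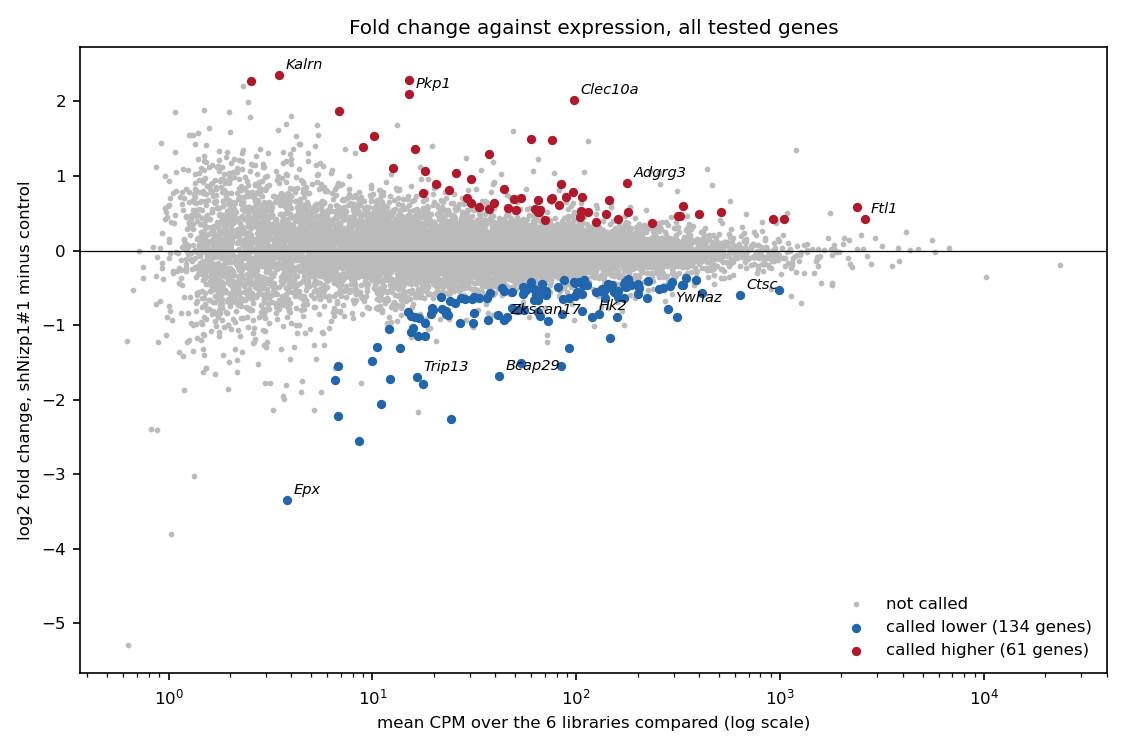
Log2 fold change of shNizp1#1 over control (vertical axis) against mean CPM over the 6 libraries (horizontal axis, log scale) for the 11994 tested genes, with called genes in colour and some named genes labelled. The 134 genes called lower lie mostly between 10 and 1000 CPM.

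The experiments resembled each other only weakly when all genes were considered. The log2 ratio of CPM + 1 had an SD across genes of 0.400, 0.465 and 0.423 in experiments 1, 2 and 3. Across genes, which are not independent replicates, Pearson's r between the ratios of 2 experiments was 0.129 for 1 and 2, 0.174 for 1 and 3 and 0.156 for 2 and 3. Of the 11994 genes, 4228 (35.3%) had one sign in all 3 experiments, 2060 of them higher and 2168 lower. The counts of calls leaned on each library: with control library 1, 2 or 3 left out there were 14, 14 or 7 higher and 45, 40 or 40 lower genes, and with shNizp1#1 library 1, 2 or 3 left out 26, 19 or 18 higher and 66, 45 or 54 lower genes. Without experiments 1, 2 and 3 as a whole, 25, 67 and 11 of the 195 calls were kept.

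A core of 28 genes was called in each of the 6 fits that left out a single library, 24 of them lower and 4 higher. Bcap29, Aldh3a2 and Adgrg3 also kept the call with any 1 of the experiments left out. For 24 of these 28 genes the change differed from that of shNizp1#2 in a direct test of the hairpins (284 of all tested genes, 2.37%, passed that test). The choice of the 28 genes and this test used the same shNizp1#1 libraries, so the selection itself favoured a high share. The comparison of shNizp1#2 with control shares the control libraries, and of the 28 genes it called Zkscan17 and Adgrg3.

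**Figure D2:**
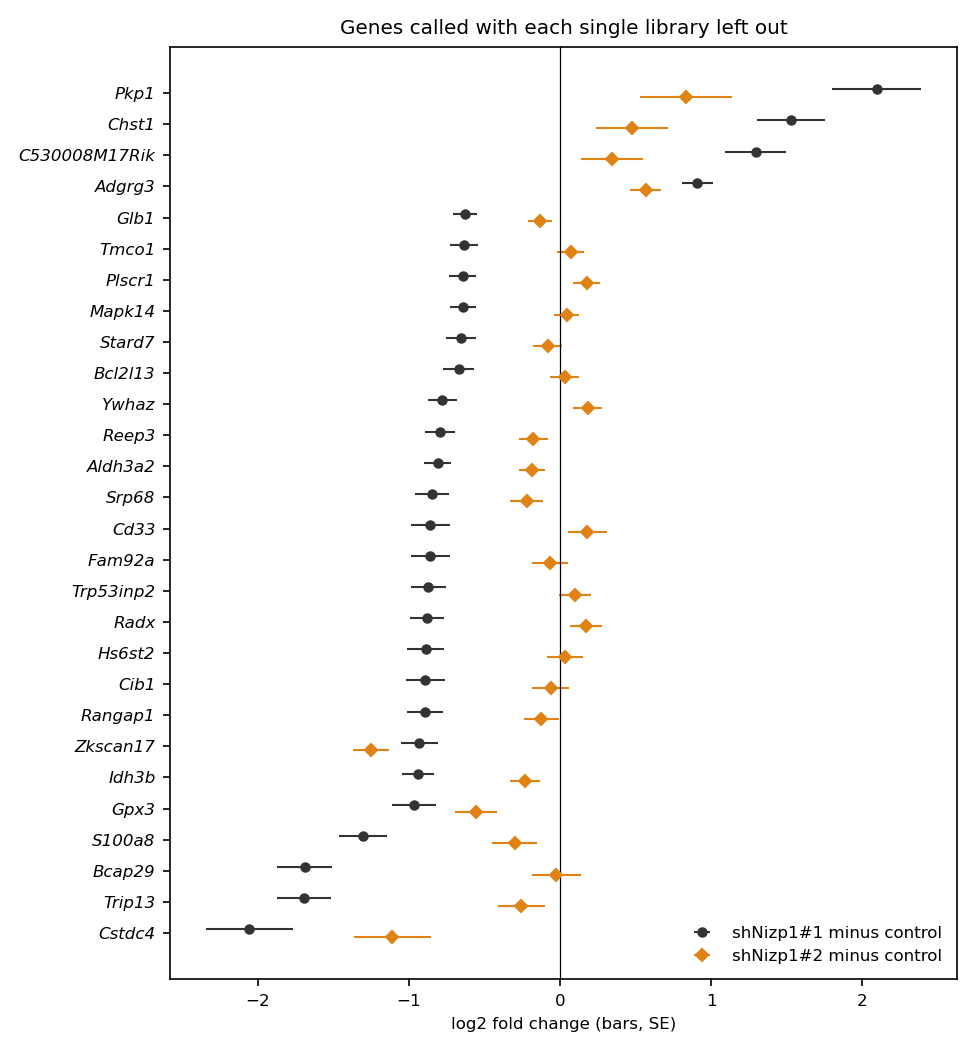
Fitted log2 fold changes of the 28 genes called with each single library left out, for shNizp1#1 (circles) and shNizp1#2 (diamonds), each against the control shRNA, with SE as bars. Both sets of values use the same 3 control libraries. Zkscan17 is at -0.93 and -1.25, while Bcap29 is at -1.69 with shNizp1#1 and at -0.02 with shNizp1#2.

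Among genes of mitosis, Trip13 had the largest decrease. It encodes an ATPase that unfolds HORMA-domain proteins, among them the checkpoint protein Mad2 (chromosome 13, 73911347 to 73937784, minus strand). Trip13 stood at 18.6, 21.1 and 36.5 CPM with the control shRNA and 7.38, 5.3 and 10.8 CPM with shNizp1#1, so that all shNizp1#1 libraries were below all controls (log2 fold change -1.69, SE 0.18, adjusted p = 0.001). With shNizp1#2 it was at 20.5, 14.4 and 28.9 CPM, and the hairpins differed by -1.44 (SE 0.18, adjusted p = 0.00107). Mad2l1bp, the adaptor through which Trip13 engages Mad2, fell as well, from 57.4, 44.4 and 34.9 to 35.2, 30.7 and 25 CPM, with experiment 3 of the controls inside the shNizp1#1 range (log2 fold change -0.57, SE 0.13, adjusted p = 0.0414). Its call was held in 0 of the 6 single-library omissions. Mad2l1 itself stood at 107, 88.7 and 122 against 104, 51.9 and 130.3 CPM (adjusted p = 0.703). Rangap1, which activates the GTPase of Ran in nuclear transport and also sits at kinetochores, fell from 198, 178 and 241 to 115, 80.1 and 141 CPM (log2 fold change -0.89, SE 0.12, adjusted p = 0.00221).

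Of the 33 tested spindle checkpoint and kinetochore genes, 27 lay below 0 and 2, Trip13 and Mad2l1bp, were called lower (1.12% of all tested genes were), with a median of -0.12 against -0.00 over all genes. Over the single-library omissions this median ran from -0.26 to 0.02, the highest without shNizp1#1 replicate 2. The list was chosen with earlier results of these data known, and Trip13, among its 2 calls, was given with the comparison. Experiment 2 stood apart: the mean log2 ratios of the list were -0.01, -0.67 and 0.05. The list of G2 and M phase genes had a similar pattern, with 34 of 36 below 0, 0 called, a median of -0.21 (-0.05 without shNizp1#1 replicate 2) and mean ratios of -0.01, -0.69 and 0.03. Its member with the highest level per length, the topoisomerase Top2a, was at 484, 442 and 501 against 466, 256 and 505 CPM (adjusted p = 0.611). The 38 S phase genes had 28 members below 0, 0 called and mean ratios of 0.07, -0.60 and 0.19, and Pcna, the clamp of the replication fork, was at 269.8, 212 and 276 against 252, 169 and 271 CPM (adjusted p = 0.578). Trip13 was lower in all 3 experiments (log2 ratios -1.23, -1.81 and -1.66), as were Mad2l1bp and Rangap1, whereas the mean ratios of the 3 lists were lowest in experiment 2. The 3 lists were also below control in experiment 2 with shNizp1#2. In that experiment the summed CPM with control, shNizp1#1 and shNizp1#2 were 1924, 1278 and 1438 for the checkpoint and kinetochore list. They were 4173, 2679.5 and 2979 for G2 and M phase genes and 2901, 1972 and 2049.6 for S phase genes. The fitted medians with shNizp1#2 were -0.198, -0.151 and -0.204 in this order. The drop in experiment 2 was thus seen with both hairpins, and its cause was not tested.

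Radx and Cib1 belong to the lower genes of the stable core. Radx, a single-strand DNA-binding protein of replication forks, stood at 90.4, 109.8 and 58.3 against 47.1, 58.1 and 33.9 CPM (log2 fold change -0.88, SE 0.11, adjusted p = 0.00198) and differed between the hairpins by -1.05 (SE 0.11, adjusted p = 5.58e-04). Cib1, a small calcium- and integrin-binding protein, stood at 58.5, 48.3 and 71.2 against 34, 23.2 and 38.6 CPM (log2 fold change -0.89, SE 0.13, adjusted p = 0.00434). The groups did not overlap for either gene. The list of meiotic TRIP13 partners had 4 tested members, with Trip13 the only call.

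Bcap29, Srp68, Sec62 and Tram2, which encode proteins of the endoplasmic reticulum (ER) or of transport into it, fell. Bcap29, a membrane chaperone of ER export and sorting related to Bcap31, had a decrease as large as that of Trip13 (chromosome 12, 31590967 to 31634635, minus strand). It stood at 61.8, 52.6 and 77.3 CPM with the control shRNA and 22.1, 12.8 and 24 CPM with shNizp1#1, without overlap (log2 fold change -1.69, SE 0.18, adjusted p = 0.001). With shNizp1#2 Bcap29 was at 63.3, 49.2 and 76.6 CPM, which overlaps the control range, and the hairpins differed by -1.67 (SE 0.18, adjusted p = 8.76e-04). Its paralog Bcap31 stood at 210.5, 168 and 193 against 206, 209.6 and 192 CPM and was not called (adjusted p = 0.75).

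Srp68, a subunit of the signal recognition particle that guides nascent proteins to the ER, fell from 101, 101 and 125 to 65.9, 50.5 and 65.1 CPM (log2 fold change -0.85, SE 0.11, adjusted p = 0.00217). Sec62, a component of the translocation channel, fell from 142, 104 and 113 to 80.6, 72.3 and 78.9 CPM (log2 fold change -0.62, SE 0.11, adjusted p = 0.0141), and Tram2, an ER membrane protein of the translocation site, from 18, 13.8 and 32 to 10.2, 6.14 and 14.3 (log2 fold change -1.04, SE 0.18, adjusted p = 0.0105). Srp68 was called in all 6 single-library omissions, Tram2 in 4 and Sec62 in 2. Of the whole list, 20 of the 31 tested genes of the ER export list lay below 0, 4 were called lower and 0 higher (1.12% and 0.509% of all tested genes), and the median was -0.06. The list was chosen with earlier results of these data known, and Bcap29, a gene given with the comparison, is among the 4. The mean ratios were similar in the experiments, at -0.12, -0.20 and -0.17. The number of lower calls in this list ranged from 2 to 4 over the single-library omissions, with 2 without control replicate 3.

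Tmco1 and Reep3 are ER genes outside that list. Tmco1, a calcium leak channel of the ER membrane, stood at 108, 85.6 and 145 against 66.1, 60 and 90.5 CPM (log2 fold change -0.63, SE 0.09, adjusted p = 0.00425), with control experiment 2 below shNizp1#1 experiment 3. Reep3, which shapes ER tubules and keeps the ER away from chromosomes in mitosis, stood at 72.3, 75.1 and 49.1 against 40.4, 43.8 and 28.7 CPM (log2 fold change -0.79, SE 0.10, adjusted p = 0.00198). Genes of the unfolded protein response, the programme that answers misfolded proteins in the ER, had 18 of 23 members below 0, 0 calls and a median of -0.11. Its member with the highest level per length, the chaperone Calr, was at 1231, 1092 and 1327 against 1187, 708 and 1274 CPM (adjusted p = 0.674).

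**Figure D3:**
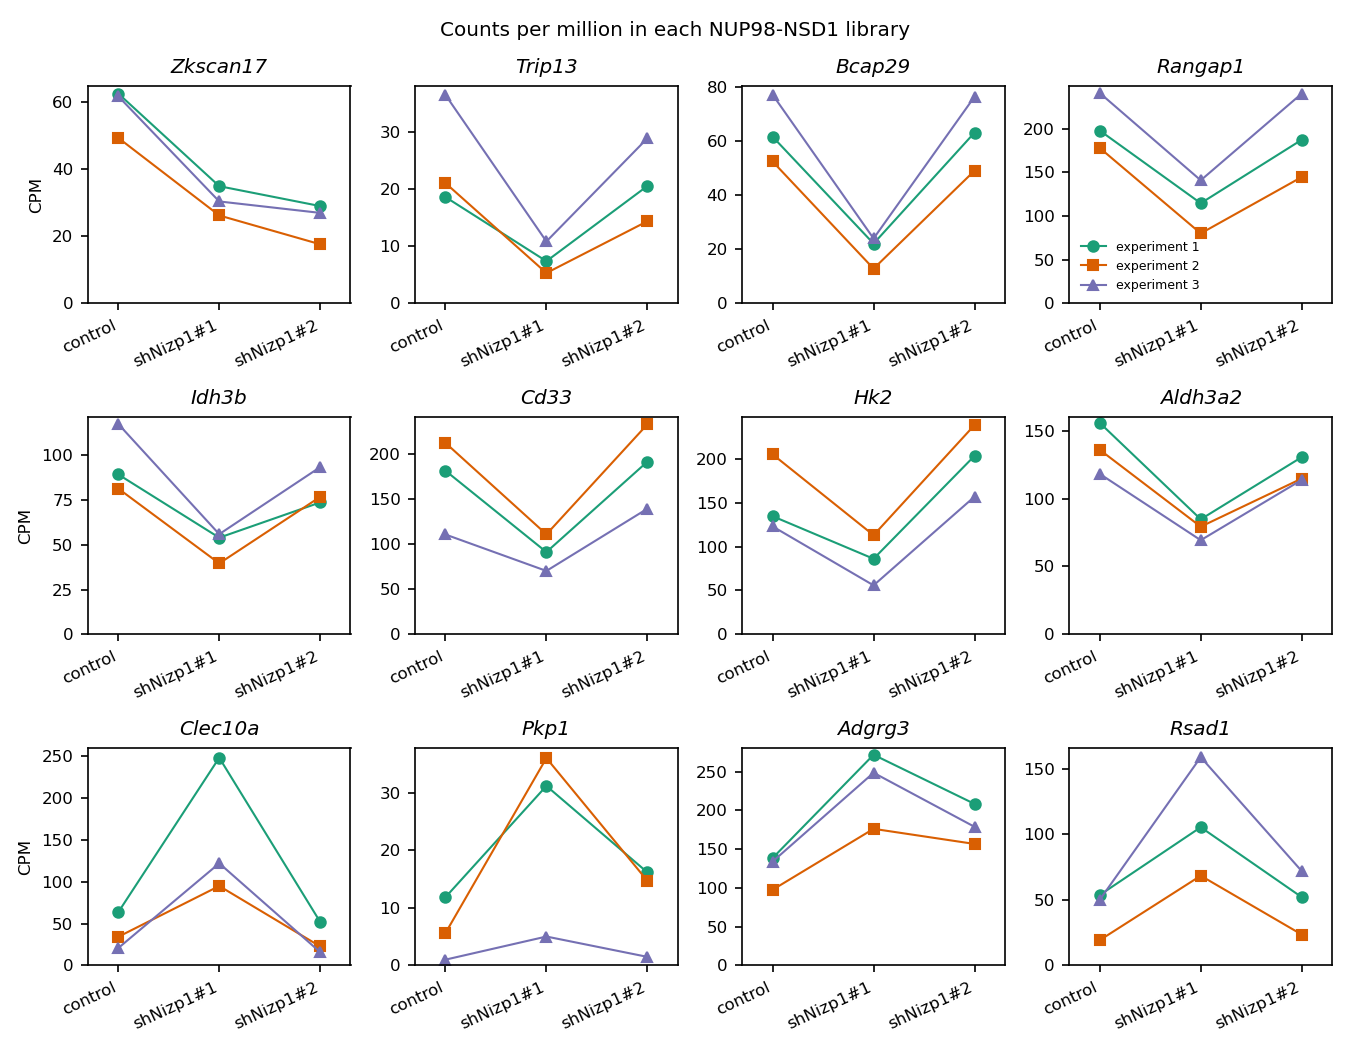
CPM of 12 named genes in the NUP98-NSD1 libraries with the control shRNA, shNizp1#1 and shNizp1#2. Points joined by a line carry the same replicate number, and each vertical axis starts at 0. Zkscan17 is low with both hairpins, while Trip13, Bcap29, Rangap1, Cd33 and Hk2 are low with shNizp1#1 in each experiment.

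Mapk14, Ywhaz and Mapk8, which encode signalling proteins, fell. Mapk14, the stress-activated kinase p38 alpha, stood at 166, 177 and 161 CPM with the control shRNA and 109, 113 and 101 CPM with shNizp1#1 (log2 fold change -0.64, SE 0.09, adjusted p = 0.00224). The spread within each group was small, and the hairpins differed by -0.69 (SE 0.09, adjusted p = 0.0012). Ywhaz, a 14-3-3 protein that binds phosphorylated partners, fell from 403, 304 and 364 to 261, 167 and 202 CPM (log2 fold change -0.78, SE 0.10, adjusted p = 0.00198) and was at 428, 356 and 426 with shNizp1#2. Both genes showed no overlap between shNizp1#1 and control. Mapk8, which encodes the kinase JNK1, fell from 20.1, 24 and 18.6 to 9.99, 10.9 and 8.61 CPM (log2 fold change -1.09, SE 0.18, adjusted p = 0.00785) and was called in 4 of the 6 omissions.

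Metabolic and organelle genes of the stable core were also lower. Idh3b, a subunit of the mitochondrial isocitrate dehydrogenase of the citric acid cycle, stood at 89.3, 81.5 and 118 CPM with the control shRNA and 54, 39.6 and 56 CPM with shNizp1#1 (log2 fold change -0.94, SE 0.11, adjusted p = 0.001). Aldh3a2, which oxidises fatty aldehydes, stood at 156, 136 and 118 against 84.7, 79.3 and 69.3 CPM (log2 fold change -0.81, SE 0.09, adjusted p = 0.001). All shNizp1#1 libraries were below all controls for both genes. Stard7, a carrier of phosphatidylcholine to mitochondria, changed by -0.65 (adjusted p = 0.00499), and Bcl2l13, a BCL2-related protein of the outer mitochondrial membrane, by -0.67 (adjusted p = 0.00527). Glb1, the lysosomal beta-galactosidase, stood at 208, 181 and 192 against 136, 118 and 121 CPM (log2 fold change -0.63, SE 0.08, adjusted p = 0.00198). Gpx3, a secreted glutathione peroxidase, stood at 39, 40.8 and 43.8 against 18.6, 16.5 and 28.2 CPM (log2 fold change -0.97, SE 0.15, adjusted p = 0.0049), and there the hairpins differed by -0.41 (adjusted p = 0.181), which did not pass the threshold. Trp53inp2, an autophagy and transcription cofactor, Fam92a, a membrane-bending protein, and Plscr1, a phospholipid scramblase, changed by -0.87 (adjusted p = 0.00198), -0.86 (adjusted p = 0.00435) and -0.64 (adjusted p = 0.00305).

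Hk2, the hexokinase of the first step of glycolysis, was lower with shNizp1#1 than with either comparison group. It stood at 135, 205 and 123 CPM with the control shRNA and 86.1, 113 and 55.8 CPM with shNizp1#1 and at 204, 239 and 157 with shNizp1#2. The decrease against control (log2 fold change -0.89, SE 0.14, adjusted p = 0.00932) was called in 2 of the 6 omissions, and the hairpins differed by -1.27 (SE 0.14, adjusted p = 0.00101). Slc2a3, a glucose transporter, rose from 388, 209.9 and 187 to 623, 368 and 226 CPM, with overlapping groups and 1 call in the 6 omissions (log2 fold change 0.60, SE 0.13, adjusted p = 0.0301). The other 23 of the 25 tested glycolysis genes were not called, and the list median was -0.05. Ampd3, an AMP deaminase of purine turnover, fell from 24.7, 22.6 and 21.4 to 6.66, 12.8 and 11.7 CPM (log2 fold change -1.15, SE 0.22, adjusted p = 0.0184). Its call was lost without control replicate 1 or 2 and without shNizp1#1 replicate 1 or 3.

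At the cell surface, Cd33 and Hs6st2 fell and Pkp1, Clec10a and Adgrg3 rose. Cd33, a sialic acid-binding receptor of myeloid cells, stood at 182, 213 and 111 CPM with the control shRNA and 91.4, 111 and 70.4 CPM with shNizp1#1 (log2 fold change -0.86, SE 0.13, adjusted p = 0.00585). Its level in control experiment 3 was as low as that of shNizp1#1 in experiment 2, but each pair moved downwards. Hs6st2, which adds sulfate to heparan chains, stood at 466, 338 and 407 against 253, 182 and 219 CPM (log2 fold change -0.89, SE 0.12, adjusted p = 0.00305), with no overlap. Csf2ra, the alpha chain of the GM-CSF receptor, was the only one of 16 tested cytokine receptor genes to be called, at 33.1, 63.6 and 25.5 against 16.2, 33.5 and 16.9 CPM (log2 fold change -0.83, SE 0.17, adjusted p = 0.0218), and it was called in 1 of the 6 omissions. The growth factor receptor subunit Csf2rb, shared by IL-3 and GM-CSF, stood at 3878, 3954 and 3379 against 3766, 4134 and 3588 CPM (adjusted p = 0.921).

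Clec10a, a galactose-binding lectin of macrophages and dendritic cells, had one of the largest increases (chromosome 11, 70166623 to 70170834, plus strand). It stood at 63.5, 34.1 and 20.6 CPM with the control shRNA and 248, 94.9 and 122 CPM with shNizp1#1, so that the lowest shNizp1#1 library was above the highest control (log2 fold change 2.02, SE 0.26, adjusted p = 0.00857). With shNizp1#2 Clec10a was at 51.9, 22.6 and 15.7 CPM, and the hairpins differed by 2.43 (SE 0.26, adjusted p = 0.00304). Leaving out control replicate 3 gave 1.88 with an adjusted p of 0.0558, and the other 5 omissions kept the call. Of the 15 tested C-type lectin receptor genes Clec10a was the only call, and 11 lay above 0. Monocyte and macrophage genes moved in experiment 3 alongside: the mean ratios of the 22 tested genes were 0.13, -0.24 and 1.22, with 0 calls, and their part in the Clec10a values was not tested.

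Pkp1, a plaque protein of desmosomes, stood at 11.8, 5.59 and 0.981 CPM with the control shRNA and 31.2, 36 and 5 CPM with shNizp1#1 (log2 fold change 2.09, SE 0.30, adjusted p = 0.00311). Experiment 3 was the lowest in both groups, and each pair moved upwards. It was the only call among 10 tested junction genes. Adgrg3, an adhesion receptor coupled to G proteins and found on granulocytes, rose from 138, 97.5 and 134 to 272, 176 and 248 CPM with no overlap (log2 fold change 0.91, SE 0.10, adjusted p = 0.001). With shNizp1#2 Adgrg3 stood at 208, 157 and 179 CPM, and the difference between the hairpins was 0.34 (SE 0.10, adjusted p = 0.106). Chst1, a sulfotransferase of keratan sulfate, stood at 3.5, 6.34 and 5.49 against 9.28, 22.3 and 13.9 CPM (log2 fold change 1.53, SE 0.23, adjusted p = 0.00435), and the predicted gene C530008M17Rik at 32.8, 28.5 and 7.85 against 54.2, 68.4 and 31.8 CPM (log2 fold change 1.29, SE 0.20, adjusted p = 0.00785).

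The largest increase by fold was that of Kalrn, a guanine nucleotide exchange factor, at 2.19, 1.3 and 0.196 against 5.23, 4.74 and 7.22 CPM (log2 fold change 2.35, SE 0.55, adjusted p = 0.0477). Levels were low, and the call was lost in all 6 single-library omissions. Nxpe2 followed at 8.32, 6.34 and 1.57 against 20.9, 38.8 and 15.1 CPM (log2 fold change 2.29, SE 0.39, adjusted p = 0.0166). The groups did not overlap for either gene. Rsad1, a mitochondrial protein of the radical SAM family, rose from 53.7, 19.2 and 50 to 105, 68.4 and 159 CPM (log2 fold change 1.48, SE 0.23, adjusted p = 0.0136), was at 52, 23.5 and 71.9 with shNizp1#2 and differed between the hairpins by 1.22 (SE 0.22, adjusted p = 0.0204). Dmwd, a WD-repeat protein, stood at 5.69, 3.36 and 5.89 against 14.8, 9.49 and 14.7 CPM (log2 fold change 1.39, SE 0.23, adjusted p = 0.00821). The calls of Nxpe2 and Rsad1 were each lost without control replicate 2 or 3 and without shNizp1#1 replicate 2 or 3. That of Dmwd was lost without control replicate 1 or shNizp1#1 replicate 3.

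Klf2, a transcription factor of quiescence and cell trafficking, rose from 17.5, 84.6 and 4.91 to 89, 146 and 19.2 CPM (log2 fold change 1.49, SE 0.28, adjusted p = 0.0353). Its level was highest in experiment 2 and lowest in experiment 3 of both groups, the groups overlapped, and the call was kept in 1 of the 6 omissions. Of the 28 tested immediate early genes 19 lay above 0 with a median of 0.33, and Klf2 was the only call. Fos, a subunit of AP-1, stood at 14.2, 435 and 6.87 against 19.3, 1037 and 16.4 CPM (adjusted p = 0.261), much higher in experiment 2. Among genes linked to KLF2, the integrin chain Itgb7 rose by 0.51 (adjusted p = 0.0218) and the sphingosine receptor S1pr2 changed by -0.50 (adjusted p = 0.0341). Further genes called higher at a lower fold were Npffr1, a neuropeptide receptor (1.10), Slfn10-ps (1.06), Glipr2 (1.04), Dcaf5, a substrate receptor of a ubiquitin ligase (0.95), Cd96, an immunoglobulin-family receptor (0.90), Ttyh2 (0.89), the protease Capn5 (0.78), the GTPase Rhob (0.68) and the G protein subunit Gna12 (0.61). The adhesion receptor Pecam1 and the clotting factor Vwf, both in the platelet list, rose by 0.49 (adjusted p = 0.0247) and 0.70 (adjusted p = 0.0389). The calls of Itgb7, S1pr2, Npffr1, Glipr2, Cd96 and Vwf were lost in all 6 omissions. Those of Slfn10-ps, Dcaf5 and Ttyh2 were kept in 1, that of Pecam1 in 2, those of Capn5 and Rhob in 4 and that of Gna12 in 5.

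Neutrophil genes were prominent among the larger decreases: 11 of the 23 genes lower by at least 2-fold belonged to the 2 lists of neutrophil secondary and tertiary granule and neutrophil surface and maturation genes, which hold 40 tested genes (0.192% of all tested genes were lower by at least 2-fold). The lists were chosen with earlier results of these data known, so this share is not independent of them. The 11 genes include the near-identical copies Cstdc4, Cstdc5 and Stfa2l1. Ngp, a granule protein of maturing neutrophils, stood at 72.7, 301 and 0.196 CPM with the control shRNA and 22.1, 112 and 0.278 CPM with shNizp1#1 (log2 fold change -1.55, SE 0.22, adjusted p = 0.00756). The calcium-binding protein S100a8 stood at 89.6, 306 and 0 against 37.8, 118 and 0.139 CPM (log2 fold change -1.31, SE 0.16, adjusted p = 0.00162) and its partner S100a9 at 137, 453 and 0.785 against 52.8, 232 and 0.278 CPM (log2 fold change -1.18, SE 0.17, adjusted p = 0.00425). All 3 genes were close to 0 in experiment 3 of both groups, so that their change was measured in experiments 1 and 2. The antimicrobial peptide gene Camp, at 14.7, 40.3 and 0 against 3.33, 14.8 and 0 CPM, and lactoferrin, Ltf, at 60.7, 174 and 0 against 19.5, 67.3 and 0 CPM, fell with them (-1.72 (adjusted p = 0.0114) and -1.51 (adjusted p = 0.0247)). Chil3, a secreted chitinase-like protein, and Pglyrp1, a peptidoglycan-binding protein, changed by -1.48 (adjusted p = 0.0247) and -1.55 (adjusted p = 0.0363). S100a8 was called in all 6 omissions, S100a9 in 5, Camp and Ltf in 3, Chil3 in 1 and Pglyrp1 in 0. The call of Ngp was lost without shNizp1#1 replicate 1 or 2.

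Of the 19 tested genes of secondary and tertiary neutrophil granules, 13 lay below 0, 5 were called lower and 0 higher (1.12% and 0.509% of all tested genes), and the median was -0.34 (-0.70 to -0.27 over the single-library omissions). DESeq2 called 3 of them and limma-voom 7. The mean log2 ratios were -0.62, -0.75 and 0.54, with 14, 17 and 2 genes lower and 5, 2 and 9 higher in experiments 1, 2 and 3. The remaining genes did not differ in experiment 3. Of the 21 tested genes of neutrophil surface and maturation, 19 lay below 0, 6 were called lower and Adgrg3 higher, against the same shares of all tested genes, and the median was -0.79. Mean ratios of this list were -0.61, -0.93 and 0.01, with 16, 20 and 8 genes lower and 5, 1 and 5 higher. The stefin genes Cstdc4, Cstdc5 and Stfa2l1 of that list fell with log2 fold changes of -2.06 (adjusted p = 0.00305), -1.78 (adjusted p = 0.00585) and -2.22 (adjusted p = 0.0157). These are near-identical copies, so their individual values are uncertain. The call of Stfa2l1 was lost without any 1 of the control libraries and without shNizp1#1 replicate 2. That of Cstdc5 was lost without control replicate 1 or shNizp1#1 replicate 2. With control library 1, 2 or 3 left out the lower calls numbered 1, 3 or 3 in the granule list and 2, 4 or 5 in the surface list. With shNizp1#1 library 1, 2 or 3 left out they numbered 0, 0 or 4 and 5, 3 or 6.

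Summed over all members with an entry, tested or not, the granule list gave 1544, 3825 and 356 CPM with control and 1157, 4006 and 1347 with shNizp1#1. The surface list gave 552, 1293 and 216 CPM and 490.1, 737 and 307 CPM. The granule sum is dominated by Lyz2, a lysozyme shared with monocytes, at 849, 1900.2 and 100.1 against 596, 2740.4 and 986 CPM (adjusted p = 0.703), which was higher with shNizp1#1 in experiments 2 and 3. The sum of monocyte and macrophage genes ran from 1743, 4640.0 and 492 CPM to 1461, 5091 and 1605 CPM. The part of these cell types in the other changes was not tested.

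The eosinophil genes Epx, a granule peroxidase, and Prg2, the major basic protein, had the steepest decreases of the named genes. Epx stood at 2.41, 18.5 and 0.196 against 0.238, 1.67 and 0 CPM (log2 fold change -3.35, SE 0.59, adjusted p = 0.0114) and Prg2 at 7.01, 37.3 and 0.196 against 1.9, 5.3 and 0 CPM (log2 fold change -2.56, SE 0.49, adjusted p = 0.0247). Both were high in control experiment 2 and near 0 in experiment 3. The call of Epx was lost without control replicate 2 (-2.89, adjusted p = 0.205) and without shNizp1#1 replicate 2 (-3.56, adjusted p = 0.204), and Prg2 was called in 1 of the 6 omissions. The 11 tested eosinophil genes had a median of -0.62, 6 below 0. That median was -0.22 without control replicate 2, -1.15 without shNizp1#1 replicate 1, -1.02 without shNizp1#1 replicate 3, -0.04 without experiment 2 and 0.12 in the 6 libraries alone, so that its sign depends on the fit. Ctsc, the protease that activates granule proteases, fell from 849.7, 779 and 658 to 603, 503 and 417 CPM (log2 fold change -0.60, SE 0.13, adjusted p = 0.031) and was the only call of 13 primary granule genes, a call lost in all 6 omissions. Mast cell genes had 16 of 25 members above 0, 0 called and a median of 0.12. Stem and progenitor genes had 12 of 21 above 0, 0 called and a median of 0.03.

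Other genes named among the larger decreases were Nrgn, a calmodulin-binding protein, at 49.1, 26.8 and 44.9 against 11.2, 5.86 and 8.19 CPM (log2 fold change -2.26, SE 0.33, adjusted p = 0.00913), with no overlap and the call kept in 2 of the 6 omissions. Otop1, a proton channel, and Nap1l3, a nucleosome assembly protein, changed by -1.31 (adjusted p = 0.0218) and -1.30 (adjusted p = 0.0157). C4a, a complement component with a near-identical copy, so that its value is uncertain, changed by -1.15 (adjusted p = 0.0156). The calls of Otop1, Nap1l3 and C4a were kept in 1, 2 and 1 of the 6 omissions. Of the 24 tested SCAN and ZKSCAN zinc finger genes, the relatives of Nizp1, Zkscan1 was called besides Zkscan17, at 47.1, 45.7 and 40.8 against 28.8, 26.8 and 30.4 CPM (log2 fold change -0.63, SE 0.12, adjusted p = 0.0189), with the call kept in 1 of the 6 omissions and lost with any 1 of the experiments left out. Zkscan1 stood at 45.7, 44.8 and 46.7 CPM with shNizp1#2, and the hairpins differed by -0.67 (SE 0.12, adjusted p = 0.01).

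Cholesterol genes lay lower as a group in the fit. All 25 tested genes of cholesterol synthesis and uptake lay below 0, with a median of -0.44, and 1 of them, Sc5d, was called (0.509% of all tested genes were called higher and 1.12% lower). DESeq2 with the same block called 7 of the 25 and limma-voom 2, and 13 had an unadjusted p under 0.05 in edgeR. The median ran from -0.69 to -0.28 over the single-library omissions, the ends being without shNizp1#1 replicate 1 and 3. The pathway builds sterols from acetyl-CoA through mevalonate, and its genes are known targets of the factor SREBP2, which works together with NF-Y at CCAAT boxes. The shift came from experiments 2 and 3: the mean ratios of the list were 0.02, -0.75 and -0.76, with 10, 25 and 25 genes lower. The summed level was 4337, 3465 and 4353 CPM with control and 4542, 2436 and 2805 CPM with shNizp1#1.

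Upstream sequence is shown for 3 of these genes, which share the CCAAT letters, and for Ngp as a neutrophil gene. Each is the 250 bases before the annotated start, from RefSeq (GRCm38.p6, the build called mm10), 5′ to 3′ on the strand of the gene. In the sterol genes capitals mark CCAAT (read as ATTGG on the other strand) and TCACNCCAC, the letters of a sterol regulatory element. In Ngp capitals mark TTGCNNAA, the letters of a C/EBP site on either strand. Other matches stay in lower case, among them ATTGG in Ngp and CACGTG, the letters of an E-box, in Sc5d.
Sc5d, chr9:42264301-42264550, minus strand: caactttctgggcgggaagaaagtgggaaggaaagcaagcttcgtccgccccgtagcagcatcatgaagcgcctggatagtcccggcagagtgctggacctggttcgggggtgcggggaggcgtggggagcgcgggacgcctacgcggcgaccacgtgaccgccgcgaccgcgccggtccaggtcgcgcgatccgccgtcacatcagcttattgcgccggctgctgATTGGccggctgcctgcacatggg
Hmgcs1, chr13:119690101-119690350, plus strand: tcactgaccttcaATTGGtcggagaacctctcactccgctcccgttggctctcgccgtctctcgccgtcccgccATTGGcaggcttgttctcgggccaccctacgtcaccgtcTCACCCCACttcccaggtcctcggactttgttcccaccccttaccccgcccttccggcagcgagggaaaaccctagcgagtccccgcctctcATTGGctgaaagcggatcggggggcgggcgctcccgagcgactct
Idi1, chr13:8885356-8885605, plus strand: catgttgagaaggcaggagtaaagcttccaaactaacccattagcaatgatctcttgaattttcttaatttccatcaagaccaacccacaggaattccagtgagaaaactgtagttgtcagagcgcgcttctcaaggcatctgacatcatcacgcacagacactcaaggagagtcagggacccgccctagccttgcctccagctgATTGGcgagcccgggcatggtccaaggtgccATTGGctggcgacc
Ngp, chr9:110419558-110419807, plus strand: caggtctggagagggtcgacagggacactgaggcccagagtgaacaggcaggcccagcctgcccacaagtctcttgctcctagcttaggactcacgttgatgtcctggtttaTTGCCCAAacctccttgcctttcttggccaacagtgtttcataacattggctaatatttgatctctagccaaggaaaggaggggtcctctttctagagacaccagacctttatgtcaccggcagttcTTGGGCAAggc

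CCAAT on either strand was found in this window for 16 of the 17 cholesterol genes with a promoter entry (94.1%), against 41.1% of the 9223 tested genes with one. It was also found for 24 of 30 G2 and M phase genes (80.0%) and 9 of 14 fatty acid synthesis genes (64.3%). TCACNCCAC was found for 1 of the 17 (5.88%), against 1.3% of all. Of the 134 lower genes 116 had an entry, and 41.4% of those held CCAAT. TTGCNNAA was found for 29.4% of 17 secondary and tertiary granule genes and 27.8% of 18 surface and maturation genes, against 9.14% of all. Other letters searched also differed in share. TATAAA, of a TATA box, was in 23.5% and 27.8% of these neutrophil genes, against 7.58% of all. GGGCGG, of a GC box, was in 94.1% of the cholesterol genes and 23.5% and 16.7% of the neutrophil genes, against 63.9%. CACGTG was in 19.0% of the lower genes with an entry, against 10.1%. These are matches of letters in a window and do not show binding. Hmgcs1 held 3 CCAAT matches and the sterol element, Idi1 held 2 CCAAT matches, and Sc5d held 1.

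**Figure D4:**
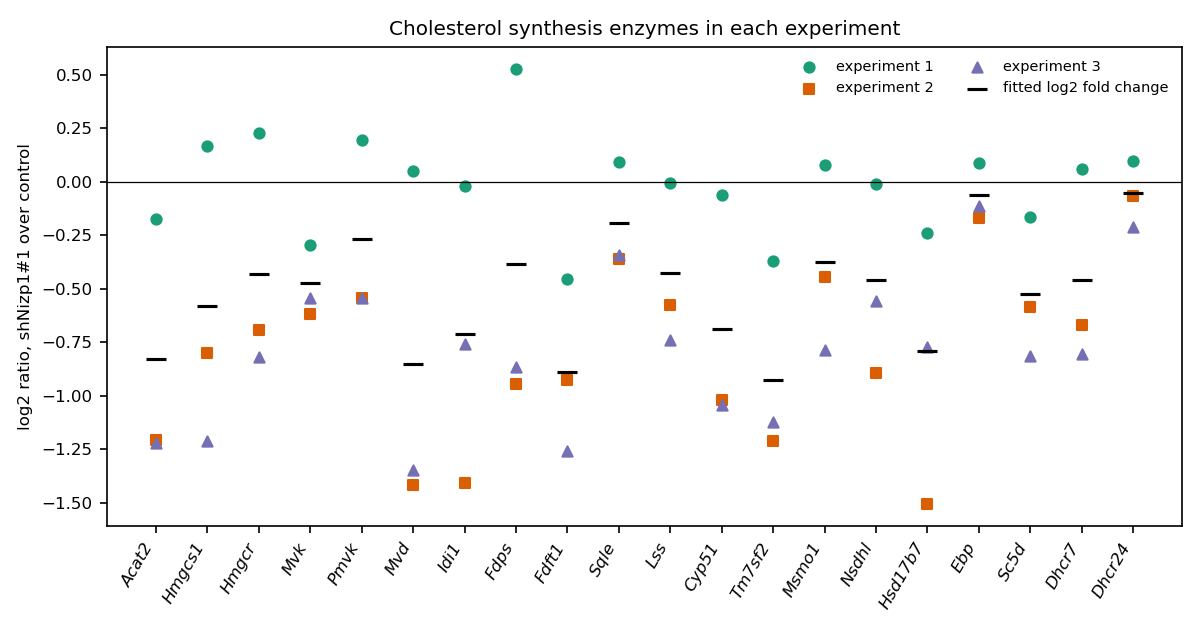
Log2 ratio of CPM + 1 (shNizp1#1 over control) of the 20 enzymes of cholesterol synthesis among these genes in each experiment, with the fitted log2 fold change as a bar. All 20 genes are below 0 in experiments 2 and 3, and 10 of 20 in experiment 1.

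Sc5d, a desaturase late in the pathway, fell from 76.9, 49.4 and 72.8 to 68.5, 32.7 and 41 CPM, with overlapping groups (log2 fold change -0.53, SE 0.12, adjusted p = 0.04), and was called in 1 of the 6 omissions. Fdft1, which makes squalene, was just outside the threshold at 78.6, 59.3 and 90.7 against 57.1, 30.7 and 37.4 CPM (log2 fold change -0.89, SE 0.20, adjusted p = 0.0598). Hmgcs1, the synthase before mevalonate, stood at 350.2, 242 and 455 against 393, 139 and 196 CPM (adjusted p = 0.422), and Idi1, the isopentenyl diphosphate isomerase, at 44.7, 39.3 and 46.5 against 44, 14.2 and 27.1 CPM (adjusted p = 0.136). In each of these 3 uncalled genes experiments 2 and 3 were lower with shNizp1#1, and experiment 1 was near or above its control except in Fdft1. Elovl6, a fatty acid elongase, fell from 20.1, 24.4 and 45.1 to 14.5, 11.7 and 22.5 CPM (log2 fold change -0.85, SE 0.16, adjusted p = 0.0159), the only call of 17 fatty acid synthesis genes, of which 15 lay below 0 with mean ratios of 0.01, -0.37 and -0.41. The call of Elovl6 was lost without control replicate 2 or 3 and without shNizp1#1 replicate 2 or 3.

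**Figure D5:**
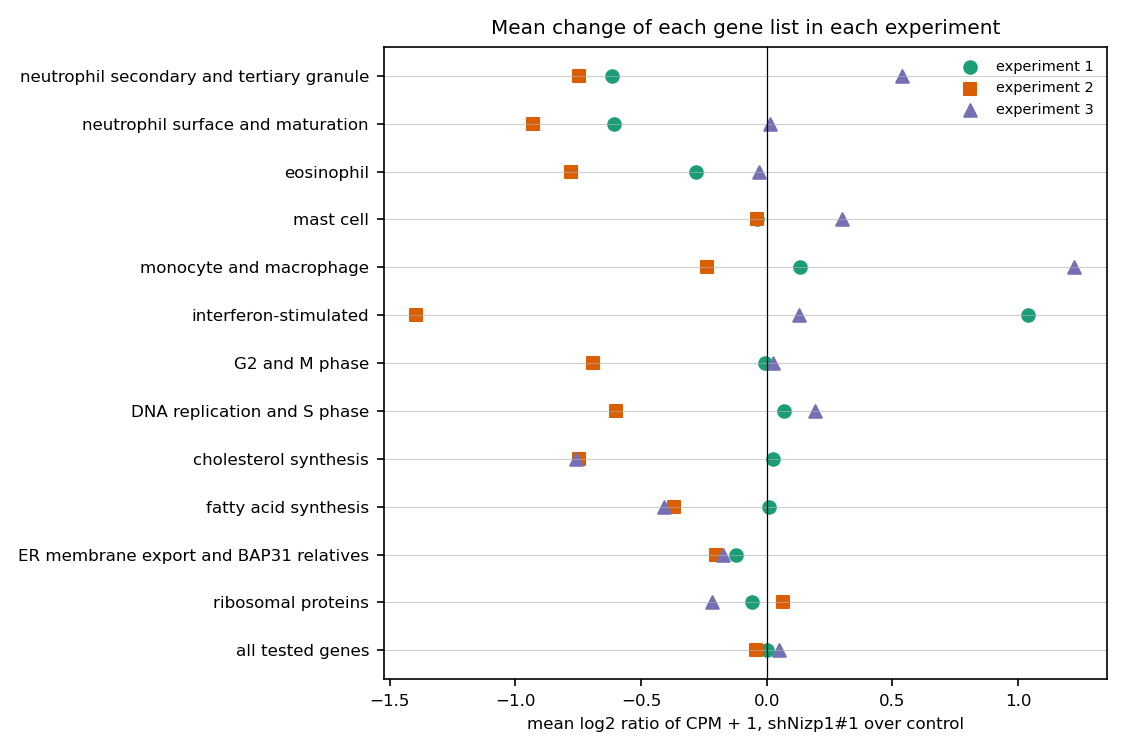
Mean log2 ratio of CPM + 1 (shNizp1#1 over control) of the tested members of 12 gene lists and of all tested genes, for experiments 1, 2 and 3. Cholesterol genes are low in experiments 2 and 3, G2 and M phase genes in experiment 2, and interferon-stimulated genes are high in experiment 1 and low in experiment 2.

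Interferon-stimulated genes showed the widest spread between experiments of the lists plotted by experiment. Their mean ratios were 1.04, -1.39 and 0.13: all 36 genes were higher in experiment 1, all 36 lower in experiment 2 and 24 higher in experiment 3. The fitted median was -0.37 with 32 of 36 below 0 and 0 called, and it was 0.64 without control replicate 2. Irf7, a factor that amplifies the response, stood at 25.6, 549 and 4.32 against 97.3, 219.9 and 1.94 CPM, highest in control experiment 2 (adjusted p = 0.946).

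In 28 lists edgeR called 0 members. Each held 0 to 6 genes with an unadjusted p under 0.05, and over the 28 lists DESeq2 called 3 genes and limma-voom 1. Those not described above are given by their median and by the member with the highest level per length, none of which was called. Medians from -0.13 to 0.05 were found for Polycomb and Trithorax genes (0.05; Rbbp4 0.05), RNA interference genes (-0.00; Ago2 -0.11), ribosomal proteins (-0.09; Rplp1 0.03), ribosome biogenesis genes (-0.13; Npm1 -0.10), nuclear respiratory chain genes (-0.06; Atp5b -0.08), mitochondrially encoded genes (0.04; mt-Co1 0.04) and histone genes (0.01; H2afz -0.10). The amino acid response list had a median of -0.10 (Atf4 -0.06), the p53 targets -0.24 and the cyclins and CDK inhibitors -0.12 (Cdkn1a, in both lists, -0.24), and the BCL2 family 0.01 (Mcl1 -0.08). NF-kB and inflammatory genes had 0.03 (Ccl2 -0.11), SOCS and STAT5 feedback genes 0.10 (Pim1 0.16), cholesterol efflux genes -0.05 (Npc2 -0.06), dendritic cell genes 0.07 (Bst2 -0.33), basophil genes 0.04 and stem and progenitor genes 0.03 (Gata2 0.17 and Cd34 -0.15), and sex-linked genes -0.02 (Eif2s3y -0.01). The lists of absent cell types had few tested members: 4 erythroid (-0.21; Gata1 0.06), 3 B cell (0.31; Blnk 0.31) and 6 T and NK cell genes (-0.30; Gzmb -0.46). Over the single-library omissions the median ran from -0.47 to -0.03 for the erythroid genes, -0.39 to 0.65 for the B cell genes and -0.42 to -0.01 for the T and NK cell genes. Of all 54 list medians, 26 turned their sign in at least 1 such omission. In the HoxA list this member was Pbx2 (-0.03).

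Lists with calls named above had medians of 0.13 for megakaryocyte and platelet genes (2 higher, and Nrgn lower), 0.20 for endothelial and stromal genes (Pecam1 higher), 0.05 for integrins (Itgb7 higher), 0.02 for guanine nucleotide exchange factors (Kalrn higher), 0.13 for KLF and SP factors (Klf2 higher) and -0.00 for sulfotransferases (Chst1 higher, Hs6st2 lower). The lysosome list had -0.02, with Glb1 lower and Sqstm1, an autophagy adaptor, higher by 0.43 (adjusted p = 0.0386).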

How the data were processed

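RNA-seq of 12 libraries was deposited as raw read counts per gene (whole numbers). Per the labels' protocols, 1 µg of RNA went into a stranded mRNA kit, sequenced as single reads of 75 nt. Per the submitters' processing notes, the tools were Trimmomatic 0.32, STAR 2.5.3a (genome mm10) and featureCounts. Its strand setting and annotation are not stated, so overlapping antisense genes may share reads. The table lists 55376 genes, 31694 of them with no count.

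All 12 libraries were fitted together with edgeR 4.0.16 in R 4.3.3 (quasi-likelihood, robust, TMM scaling, filterByExpr on the groups) with group and replicate number as terms. P-values were adjusted by Benjamini and Hochberg over 11994 genes, and an adjusted p under 0.05 is a call. SEs derive from the F statistic. CPM use TMM-scaled library sizes over the tested genes, and ratios per experiment use a pseudocount of 1. 3 counts correspond to between 0.417 and 0.837 CPM, so values near this floor cover few reads, counting error only.

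The replicate number pairs the libraries: residuals of libraries with the same number correlated in 18 of 18 pairs (lowest r 0.223, median 0.738, highest 0.877). Control and shNizp1#1 libraries of experiments 1, 2 and 3 correlated at 0.372, 0.769 and 0.799. Each of the 12 libraries correlated best with one of its own number. Pairs with different numbers had a median r of -0.261, but residuals were taken from group means, which pushes such pairs below 0. No replicate pair agreed within sampling noise.

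The comparison, its members and the gene lists were chosen with earlier results of these data known. Named genes are Zkscan17, Nsd1, Nup98, Trip13, Bcap29, Pkp1 and Clec10a. To these were added, among called genes whose larger group mean reached 5 CPM, with 1 direction in all pairs and no clone name, the 15 largest changes and the 10 smallest p-values in each direction. Every gene called in all 6 single-library omissions was named, and of each list up to 4 called members or the one highest per length. One such gene is left out of this text. Members named beyond the rule were chosen after their values were seen. Lists were described without set tests. Alternatives were no block, the 6 libraries alone, RLE, upper-quartile and total-count scaling, other filters, a fit that was not robust, DESeq2 1.42.0, limma-voom (limma 3.58.1), and leaving out each library or experiment. Upstream sequences are from RefSeq.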

Additional observations from a re-analysis of the deposited data

How the results depend on the processing

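The counts of genes higher and lower (61 and 134), and of those changed at least 2-fold (15 and 23), were 0 in every case without the replicate block, where Zkscan17 changed by -0.92 (adjusted p = 0.490); the cause was not tested. With the replicate pairing kept, the counts were 47, 83, 13 and 18 in the 6 libraries alone, 71 and 170 higher and lower with DESeq2, and 59 and 127 with limma-voom. Without a filter on low counts 23682 genes were tested, of which 222 were higher and 290 lower, 58 and 49 at least 2-fold, and 192 of the 195 calls were kept. Single-library omissions gave 7 to 26 genes higher, 40 to 66 lower, 5 to 9 higher and 10 to 22 lower at least 2-fold, and left Zkscan17 between -0.95 and -0.86. Leaving out a whole experiment gave 2 to 27 higher, 9 to 63 lower, 1 to 7 and 6 to 17 at least 2-fold, and Zkscan17 between -0.99 and -0.88. Of the 79 named called genes, 39, 35 or 39 lost the call when control library 1, 2 or 3 was left out, and 30, 37 or 29 when shNizp1#1 library 1, 2 or 3 was. Scaling by RLE, upper quartile or totals cost 3, 2 and 2 of them, and the fit that was not robust cost 7. All 13 named genes that turned their direction in some fit were uncalled. Over the omissions of a library or experiment, log2 fold changes ran from -0.13 to 0.0254 for Atf4, -0.19 to 0.0227 for Atp5b, -0.32 to 0.72 for Blnk, -0.87 to 0.44 for Bst2, -0.18 to 0.0188 for Ccl2, -0.0912 to 0.0857 for Eif2s3y, -0.0334 to 0.15 for Gata1, -0.16 to 0.00386 for Mcl1, -0.15 to 0.0182 for Npc2, -0.13 to 0.0375 for Pbx2, -0.00575 to 0.0890 for Rbbp4, -0.10 to 0.10 for Rplp1 and -0.13 to 0.23 for mt-Co1. Eif2s3y, at -0.01 in the report, was 0.00157 without the block, 0.00751 in the 6 libraries alone, 1.93e-05 and 0.0192 with upper-quartile and total-count scaling, and 0.0103 with a filter of 10 counts in 3 libraries. Depth limits genes near the floor, such as neutrophil genes in experiment 3 and Kalrn.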

Other observations

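Genes of iron storage, heme and glutathione were looked at after their values were seen, and the list of 32 genes was drawn up then. With shNizp1#1, 23 of the 32 lay above 0, with a median of 0.17, 7 were called higher (0.509% of all tested genes were) and Gpx3 lower. The ferritin heavy chain Fth1 stood at 2042, 1895 and 1792 CPM with the control shRNA and 2486, 2954 and 3147 CPM with shNizp1#1 (log2 fold change 0.58, SE 0.12, adjusted p = 0.0246), and all shNizp1#1 libraries were above all controls. Its light chain partner Ftl1 stood at 1995, 1906 and 2715 against 2687, 2382 and 3886 CPM (log2 fold change 0.42, SE 0.08, adjusted p = 0.0201), with overlapping groups. Hmox1, which breaks down heme, stood at 60.7, 57.8 and 56.1 against 96.1, 88.5 and 99.3 CPM (log2 fold change 0.71, SE 0.16, adjusted p = 0.0443), without overlap, and Gclm, a subunit of the enzyme that starts glutathione synthesis, at 59.3, 39 and 145 against 115, 57.2 and 225 CPM (log2 fold change 0.72, SE 0.13, adjusted p = 0.0105). The heme transporter Slc48a1, the autophagy adaptor Sqstm1 and the catalase gene Cat rose by 0.47 (adjusted p = 0.00913), 0.43 (adjusted p = 0.0386) and 0.37 (adjusted p = 0.0414). With shNizp1#2 Fth1 was at 1751, 2017 and 1769 CPM and Hmox1 at 49.1, 70.3 and 43.9, and the hairpins differed by 0.63 (SE 0.12, adjusted p = 0.0118) for Fth1, 0.81 (SE 0.16, adjusted p = 0.0176) for Hmox1 and 0.78 (SE 0.13, adjusted p = 0.00437) for Gclm. The calls of Hmox1, Cat and Sqstm1 were lost in all 6 single-library omissions, those of Fth1 and Ftl1 in 5 of 6. That of Gclm was lost without control replicate 1 or 2 and without shNizp1#1 replicate 1 or 3. That of Slc48a1 was lost without any 1 of the control libraries.

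A list of 27 MAP kinase cascade genes was also drawn up after the values were seen. Of the 26 tested, 15 lay below 0 with a median of -0.01, 5 were called lower and 0 higher (1.12% of all tested genes were lower). Besides Mapk14 and Mapk8, these were Map2k4, a kinase upstream of JNK and p38, at 137, 139.8 and 94.2 against 96.6, 84.8 and 67.1 CPM (log2 fold change -0.57, SE 0.09, adjusted p = 0.00789), the small GTPase Nras at 129, 108 and 122 against 83.7, 75.4 and 84 CPM (log2 fold change -0.56, SE 0.09, adjusted p = 0.00949) and the transcription factor Atf2 at 52.8, 64.7 and 55.9 against 42.1, 41.6 and 34.4 CPM (log2 fold change -0.56, SE 0.12, adjusted p = 0.0254). The hairpins differed for Map2k4 by -0.62 (SE 0.09, adjusted p = 0.00342), for Nras by -0.58 (SE 0.09, adjusted p = 0.00518) and for Atf2 by -0.54 (SE 0.11, adjusted p = 0.0235). The call of Map2k4 against control was lost without control replicate 1 or 2 and without shNizp1#1 replicate 2. That of Nras was lost without control replicate 1 or 3 and without shNizp1#1 replicate 1.

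Acsf2, an acyl-CoA synthetase named after its values were seen, lies beside Rsad1 on the minus strand of chromosome 11 (94557102 to 94601871 against 94539798 to 94549199). Both were called higher: Acsf2 stood at 38.3, 22 and 61 against 53.3, 37.7 and 108 CPM (log2 fold change 0.71, SE 0.13, adjusted p = 0.0136).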
